A study of Drosophila melanogaster with 4 samples.

Results

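Genes that control the step from G1 into S phase and the growth of the cell were examined in BG3 cells of Drosophila melanogaster after knockdown of Cap-H2. There were 10 of them, CycD, Cdk4, Cdk2, dap, Rbf, E2f2, Dp, mip120, mip130 and Myc, chosen by symbol, and all 10 had a row among the 8806 genes and transposable element families measured. BG3 is a line from the larval central nervous system. Cells of both groups were grown in medium with 10% serum and 10 µg/mL insulin, exposed for 30 min to 20 µg of dsRNA and harvested after 4 days of culture. The dsRNA targeted Brown, an eye pigment gene that serves as the control target, in one group and Cap-H2, a subunit of the chromosome-compacting complex condensin II, in the other. RNA of 2 libraries per group was sequenced, and the design asks how expression differs after knockdown of this condensin II subunit. The labels give the genotype of the Brown libraries as WT, name no clone, and leave it unsaid whether separate cultures were used. The p-values therefore cover only the spread between these libraries, which may be technical.

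In G1, cyclin D with Cdk4 and cyclin E with Cdk2 phosphorylate the retinoblastoma-family protein Rbf. Unphosphorylated Rbf binds heterodimers of an E2F protein with Dp and holds down the genes needed for S phase, while phosphorylation releases them. In flies E2f1 is the activating E2F and E2f2 the repressive one. E2f2, Dp and Rbf also sit together with Myb and the MuvB proteins, among them mip120 and mip130, in a complex that represses many genes for long periods and supports others during mitosis. Rbf is also known to bind Cap-D3, another condensin II subunit. Myc, with its partner Max, drives ribosome production and cell size and so sets how fast cells pass G1.

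None of the 10 genes passed the test at a Benjamini-Hochberg adjusted p of 0.05 over all tested rows (limma), where 0.39% of the 7690 tested rows did, 0.325% as higher and 0.065% as lower. All 10 had enough reads to be tested, and the change of each was small. Their log2 fold changes lay between -0.08 for Cdk2 and 0.11 for CycD, 4 positive and 6 negative. At an unadjusted p under 0.05 limma counted 1 of the 10, Myc, against 8.13% of all tested rows. On whole reads recovered from the table, edgeR called 0 and counted 1 at an unadjusted p under 0.05, and DESeq2 called 0 and counted 1 but gave 7 of the 10 no adjusted p. An exact permutation test of 2 libraries against 2 cannot go below p = 0.333.

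Depth ranged from 21539511 to 21935781 reads per library, summed over genes and element families. Cap-H2 (FBgn0037831) stood at 880 and 873 normalized read counts in the control and at 543 and 555 in the knockdown, 62.7% of the control (-0.67 on the log2 scale, SE 0.06, limma adjusted p = 1.5e-05). Of the neural markers, elav was present at a mean of 558 normalized read counts over the 4 libraries, while nSyb and brp were at 3.00 and 3.24. The progenitor markers dpn, mira and pros had means of 8.20, 17.3 and 13.5. Of the glial markers, moody had a mean of 5349, repo 81.6 and Gs2 104. Of the muscle markers, Mef2 had 2853, Mhc 10.7 and Mlc2 15.8. The blood cell markers drpr, srp and crq had means of 9248, 6086 and 3166, while NimC1 had 6.49. Hml, on the same blood cell list, had 339 and 287 normalized read counts in the control and 221 and 239 in the knockdown. It was lower in both knockdown libraries, while drpr was higher in both, at 8862 and 9228 against 9466 and 9435. Of all tested rows, 19.5% lay wholly below the control in the knockdown and 19.2% wholly above. The summed level of the 5 blood cell markers ranged from 18679 to 18791 in the control and from 18782 to 18861 in the knockdown, that of the 3 epithelial markers from 2701 to 2750 and from 2942 to 2959, and that of the 3 neuronal markers from 538 to 565 and from 571 to 582. No tested marker on these lists passed limma's threshold, and the part of such differences in the values below was not tested. In bulk RNA, a smaller share of cells in a given phase and less RNA per cell cannot be told apart.

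Per kilobase of exon, Dp was the most abundant of the 10 genes in the control, at 1420 ± 43.1 normalized reads per kb (SD, n = 2). Myc followed at 1016 ± 9.29, Rbf at 671 ± 21.6 and mip130 at 563 ± 28.3. The inhibitor gene dap, at 454 ± 6.91, and CycD, at 453 ± 31.6, did not differ beyond their spread, and they exchanged places in the knockdown. E2f2 stood at 323 ± 2.19. The lowest levels were those of mip120 at 264 ± 1.04, Cdk2 at 240 ± 12.8 and Cdk4 at 221 ± 2.29, whose ranges over the 4 libraries overlapped from each to the next, and Cdk2 and Cdk4 also exchanged places in the knockdown. All other neighbours in the order were separate in all 4 libraries. Among all tested genes the level per kb of Dp was at the 89.3rd percentile and that of Cdk4 at the 38.5th.

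**Figure D1:**
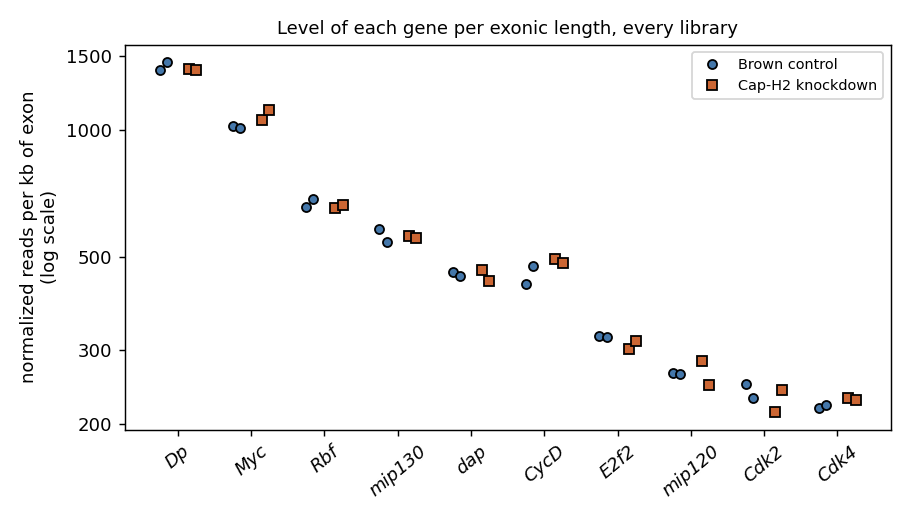
Level of each of the 10 genes in normalized reads per kb of exon (log scale), with every library as a point, circles for the Brown control and squares for the Cap-H2 knockdown. Genes are ordered by their control mean, from Dp at 1420 to Cdk4 at 221, and the points of the groups lie close together for every gene.

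This order depends on how shared exons were counted, since exonic bases of 6 of the 10 genes lie opposite exons of another gene and whether reads were counted by strand is unknown here. Myc shares 3754 of its 9170 exonic bp with CG12535 on the opposite strand and 1859 bp with lncRNA:CR44999 on its own strand. Cdk2 shares 1010 of 2299 bp with CG17267, and E2f2 shares 399 of 2002 bp with Mpp6, both on the opposite strand. In a measure chosen after seeing the data, all reads of a gene were divided by only the bases it shares with no other gene. Myc would then stand at 2619 reads per kb in the control and above Dp at 1432, and Cdk2, at 428, above E2f2 at 404. These values are too high for a gene whose reads on shared bases were counted. Taking only same-strand overlap out of the length left the order as given.

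CycD and Cdk4 encode the cyclin and the kinase that first act on Rbf, and in flies the pair is also known to promote growth. CycD (FBgn0010315, dm6 chromosome X, 15906822 to 15909676, minus strand, protein-coding) had normalized read counts of 1056 and 1165 in the control and 1210 and 1189 in the knockdown. Both knockdown libraries were above both control libraries, but the gap between the control libraries, 0.14 on the log2 scale, exceeded the fold change. The group means were 1111 ± 77.5 and 1199 ± 14.6 (SD, n = 2 each), and the log2 fold change was 0.11 (SE 0.06, 95% interval -0.01 to 0.23, limma adjusted p = 0.62). Without control library 1, the lower one, it was 0.04, and without control library 2 it was 0.18 (limma adjusted p = 0.18).

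Cdk4 (FBgn0016131, chromosome 2R, 16579470 to 16585448, plus strand) had 540 and 548 normalized read counts in the control and 568 and 561 in the knockdown. The groups did not overlap, and the libraries of each group were close to each other. Its log2 fold change of 0.05 (SE 0.07, 95% interval -0.09 to 0.20, limma adjusted p = 0.88) lies within its error, and counting alone gives an error of 0.06 at this depth.

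Cdk2 (FBgn0004107, chromosome 3R, 20735623 to 20738414, plus strand), the kinase partner of cyclin E, had 573 and 531 normalized read counts in the control and 492 and 556 in the knockdown. Knockdown library 1 was the lowest of the 4 and library 2 lay between the control libraries. The log2 fold change of -0.08 (SE 0.08, 95% interval -0.24 to 0.09, limma adjusted p = 0.84) was the least precise of the 10, and leaving out knockdown library 2 gave -0.17, leaving out library 1 gave 0.01.

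The gene dap (FBgn0010316, chromosome 2R, 9712321 to 9716256, plus strand) encodes Dacapo, the inhibitor of cyclin E with Cdk2 related to mammalian p21 and p27. It had 1162 and 1137 normalized read counts in the control and 1178 and 1110 in the knockdown, so that the knockdown libraries lay on either side of the control libraries. Its group means were 1150 ± 17.5 and 1144 ± 48.0 (SD, n = 2 each). The 95% interval of its change, in percent, ran from -7.88 to 7.33 (log2 fold change -0.01, limma adjusted p = 0.99).

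**Figure D2:**
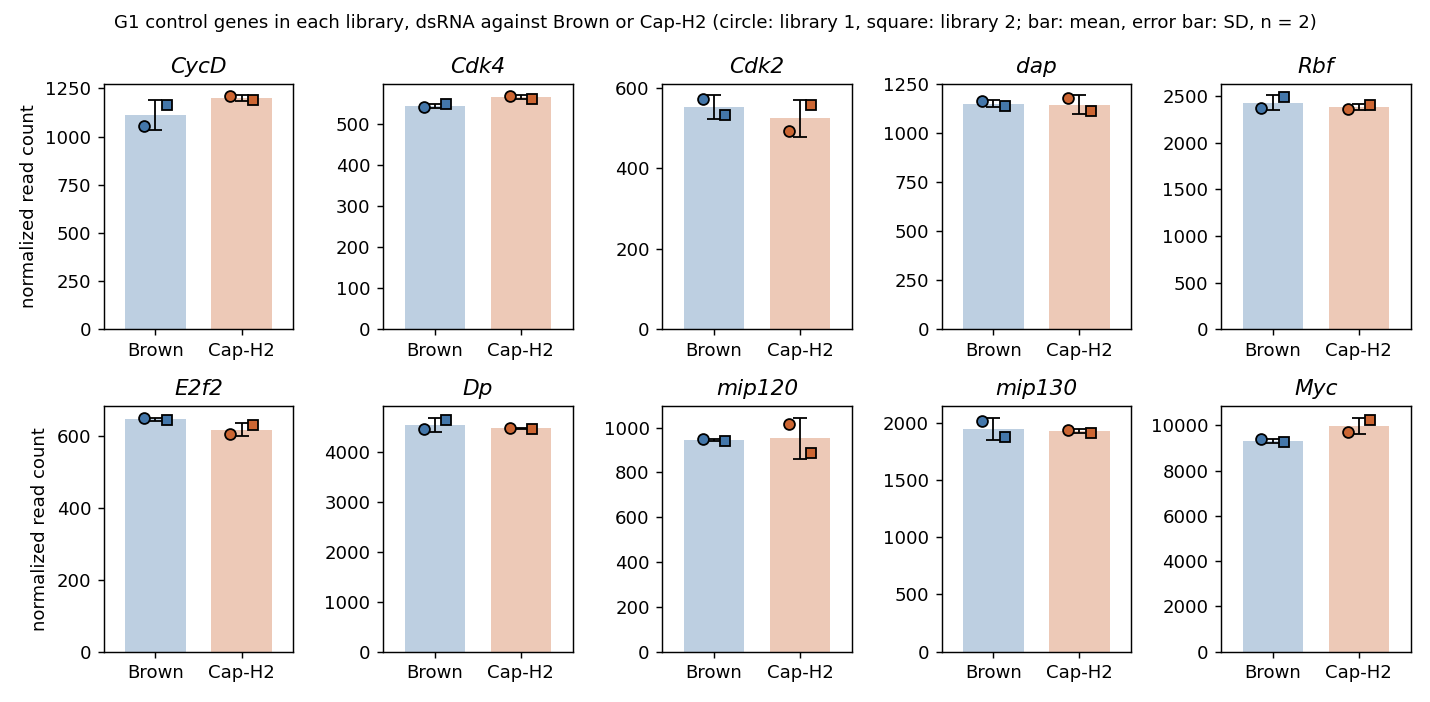
Normalized read counts of the 10 genes in each library (vertical axis from 0), with bars for the mean and error bars for the SD of 2 libraries. The bars of each pair are of nearly equal height, and the largest relative step is that of CycD, from 1111 to 1199.

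Rbf (FBgn0015799, chromosome X, 797090 to 801479, minus strand), the retinoblastoma-family gene, had 2374 and 2485 normalized read counts in the control and 2359 and 2401 in the knockdown. The groups overlapped. Its change was -0.03 on the log2 scale (SE 0.04, limma adjusted p = 0.89), with a 95% interval in percent from -7.66 to 3.99.

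E2f2 (FBgn0024371, chromosome 2L, 21154293 to 21156749, minus strand), the repressive E2F, had 650 and 644 normalized read counts in the control and 605 and 630 in the knockdown. Both knockdown libraries lay below both control libraries, as was the case for 1 of the 10 genes and for 19.5% of all tested rows. The log2 fold change of -0.07 (SE 0.06, 95% interval -0.20 to 0.07, limma adjusted p = 0.83) was close to its error, and leaving out knockdown library 1 gave -0.04, leaving out library 2 gave -0.10. Mpp6, whose exons lie opposite part of E2f2, had 151 and 144 normalized read counts in the control and 161 and 171 in the knockdown. Its log2 fold change was 0.17 (SE 0.13, 95% interval -0.10 to 0.43, limma adjusted p = 0.78). The values of the overlapping pair thus differed in sign, but both intervals include 0.

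Dp (FBgn0011763, chromosome 2R, 13222433 to 13228202, plus strand), the partner that both E2F proteins need to bind DNA, had 4445 and 4640 normalized read counts in the control and 4478 and 4451 in the knockdown. Both knockdown values lay between the control values. The 95% interval in percent ran from -6.57 to 3.46 (-0.02 on the log2 scale, SE 0.03, limma adjusted p = 0.90). On the log2 scale its interval was narrower than that of any other of the 10 except Myc.

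The MuvB genes had group means that differed by less than their spread. The libraries of mip120 (FBgn0033846, chromosome 2R, 13506430 to 13513112, plus strand), related to LIN54, the DNA-binding MuvB subunit of mammals, had 948 and 942 normalized read counts in the control and 1017 and 887 in the knockdown. The knockdown libraries thus stood on opposite sides of the control, 0.20 apart on the log2 scale, around a difference of 0.01 (SE 0.06, limma adjusted p = 0.99). Without knockdown library 1 the value was -0.09, and without knockdown library 2 it was 0.11. In mip130 (FBgn0023509, chromosome X, 1908239 to 1920318, plus strand), related to LIN9, the counts were 2015 and 1877 in the control and 1938 and 1914 in the knockdown, both inside the control range. Its log2 fold change was -0.01 (SE 0.05, 95% interval -0.11 to 0.08, limma adjusted p = 0.97).

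Myc (FBgn0262656, chromosome X, 3373159 to 3391697, plus strand) had the smallest p of the 10. It had 9376 and 9256 normalized read counts in the control and 9716 and 10227 in the knockdown. Both knockdown libraries lay above both control libraries, with a mean at 107% of the control mean, and knockdown library 2 was the highest. The group means were 9316 ± 85.2 and 9971 ± 361 (SD, n = 2 each), with a log2 fold change of 0.10 (SE 0.03, 95% interval 0.03 to 0.17), with an unadjusted limma p of 0.0074 and a limma adjusted p of 0.34. It ranked 166th by p among the 7690 rows. Leaving out knockdown library 2 gave 0.06 (limma adjusted p = 0.92), and leaving out library 1 gave 0.13 (limma adjusted p = 0.15). CG12535, opposite to Myc exons, had 4.92 and 3.00 normalized read counts in the control and 10.97 and 14.2 in the knockdown, a mean under the minimum for testing.

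**Figure D3:**
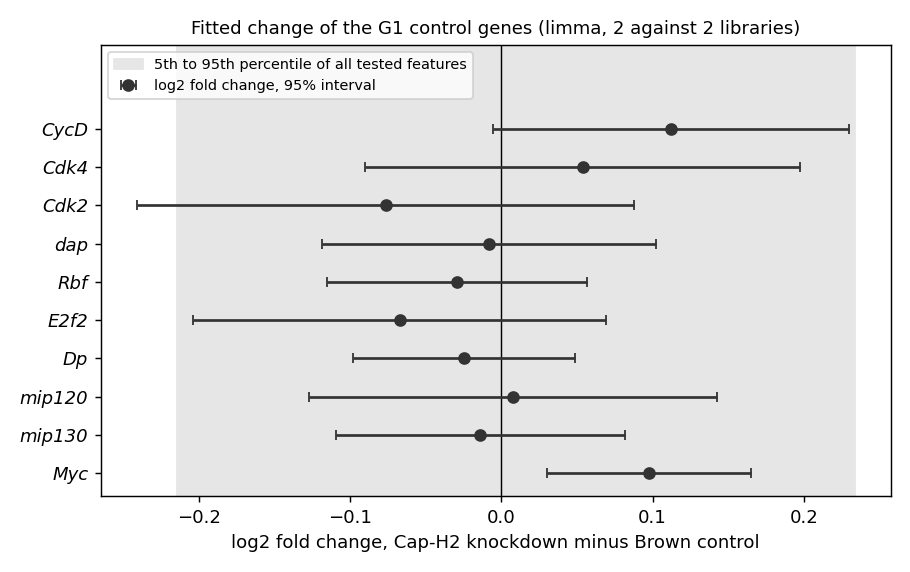
Log2 fold change (knockdown minus control) of the 10 genes with the 95% interval of limma, over the range from the 5th to the 95th percentile of all tested features, -0.21 to 0.23, in grey. Every point lies inside the grey range, and the interval of Myc, 0.03 to 0.17, leaves out 0 before adjustment.

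The genes whose values over the 4 libraries were nearest to those of Myc, by Euclidean distance of centred log2 values, were cnc, CG14965 and lili, at distances of 0.0071, 0.0087 and 0.0091. Closeness over 4 libraries, which by itself fixes their fold changes near that of Myc, is given as a description only. None of these passed: for cnc, a stress-response transcription factor, the log2 fold change was 0.10 (SE 0.04, adjusted p in limma 0.57). It was also 0.10 for CG14965 (SE 0.08, limma adjusted p = 0.80) and for lili (SE 0.08, limma adjusted p = 0.77).

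Across the 10 genes the median log2 fold change was -0.01, against -0.00 over all tested rows, and the median of its absolute value was 0.04 against 0.06. Knockdown libraries lay wholly above the control for 3 of the 10, CycD, Cdk4 and Myc, where 19.2% of all tested rows did so, and wholly below for E2f2. The groups did not overlap for 38.7% of all tested rows in either direction. In 7 of the 10 genes the larger gap between libraries of one group exceeded the difference between the group means, as it did for 74.1% of all tested rows. The error of the fold changes ran from 0.03 to 0.08, and counting reads alone would give from 0.01 to 0.06. For comparison, the smallest log2 fold change called among all rows was 0.14 in size. Together the 10 genes held 0.108% of normalized reads in both groups. The authors' deposited table, which counts 32 of its rows at an adjusted p under 0.05, gave all 10 an adjusted p of 0.999 and Myc an unadjusted p of 0.0143.

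Among partners and regulators of these genes, 0 of the 18 tested members of a list of 20 passed limma in either direction, with 1 at an unadjusted p under 0.05, where 0.39% and 8.13% of all tested rows did. edgeR called 0 and counted 2 at that level, and DESeq2 called 0 and counted 0, with no adjusted p for 11 of the 18. The median log2 fold change was -0.05, with 8 positive and 10 negative values. SkpA, the Skp1 subunit of SCF ubiquitin ligases, had 3227 and 3451 normalized read counts in the control and 3146 and 3053 in the knockdown (-0.11 on the log2 scale, SE 0.04, limma adjusted p = 0.49). Caf1-55, a histone-binding subunit of MuvB and other complexes, had 3624 and 3701 against 3568 and 3384 (-0.08, SE 0.04, limma adjusted p = 0.62). The counts of stg, the Cdc25 phosphatase that starts mitosis, were 3908 and 3237 in the control, which differ widely, and 3459 and 3114 in the knockdown (-0.12 on the log2 scale, SE 0.06, limma adjusted p = 0.68). The value of stg depended on which library was left out, most of all among the control libraries. Without control library 2 it stood at -0.25, and without control library 1 at 0.02. Without knockdown library 1 it was -0.19, and without knockdown library 2 it was -0.04. Myb was not analysed here, and CycJ was under the minimum.

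Named after their values were seen, as the paralogs and partners of the 10, were E2f1, Rbf2, CycE, mip40 and lin-52. E2f1 stood at 1530 reads per kb of exon in the control, against 323 for E2f2, and its log2 fold change was 0.03 (SE 0.03, limma adjusted p = 0.82). Rbf2, the second retinoblastoma-family gene, stood at 83.8 reads per kb in the knockdown against 658 for Rbf. It had 263 and 249 normalized read counts in the control and 241 and 210 in the knockdown (-0.18 on the log2 scale, SE 0.11, limma adjusted p = 0.69). CycE, the partner of Cdk2, stood at 255 reads per kb of exon in the control, near the 240 of Cdk2, and changed by -0.09 on the log2 scale (SE 0.06, limma adjusted p = 0.71). That closeness depends on shared exons, since Cdk2 stood at 428 when divided by unshared bases alone. CycE shares 248 of its 5047 exonic bp, on the opposite strand. Of the smaller MuvB subunits, mip40 had a log2 fold change of 0.03 (SE 0.07) and lin-52 of -0.22 (SE 0.12, limma adjusted p = 0.68), the latter at 192 and 174 normalized read counts in the control and 154 and 160 in the knockdown. Opposite exons of another gene cover 652 of the 1360 exonic bp of lin-52.

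Genes known as targets of E2F in S phase had mostly negative fold changes, with none past the threshold. Of the 17 in the list 16 were tested, 0 were called by limma, edgeR or DESeq2, and 6 had an unadjusted limma p under 0.05, all 6 with a negative value, as did 6 in edgeR and 2 in DESeq2, which gave 11 no adjusted p. Of all tested rows limma called 0.39%, and 8.13% had an unadjusted p under 0.05. No such share was taken for edgeR and DESeq2, which called 28 and 45 of all tested rows. In limma 3854 of the 7690 tested rows had a negative value. The median log2 fold change was -0.08 against -0.00 over all tested rows, 15 of the 16 were negative, and in 12 both knockdown libraries lay below both control libraries, where 19.5% of all tested rows did. Mcm2, a subunit of the replicative helicase, had 2220 and 2219 normalized read counts in the control and 2006 and 2005 in the knockdown (-0.15 on the log2 scale, SE 0.04, limma adjusted p = 0.20). For RnrS, of the enzyme that makes deoxynucleotides, they were 3996 and 3958 against 3736 and 3536 (-0.13, SE 0.04, limma adjusted p = 0.24). Fen1, the flap endonuclease, had 591 and 578 against 533 and 484 (-0.20, SE 0.07, limma adjusted p = 0.43). Lower levels of these replication genes in the same libraries were known when the list was made, so the list adds no independent evidence of their direction.

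Mitotic genes listed here under Myb and MuvB had a median log2 fold change of -0.02 over 17 tested members, 7 positive and 10 negative. Whether each of them needs Myb and MuvB in these cells was not tested. Limma called 0 and counted 1 at an unadjusted p under 0.05 (0.39% and 8.13% of all tested rows), edgeR called 0 and counted 1, and DESeq2 called 0 and counted 0, with no adjusted p for 9. The nearest to the threshold was sub, a mitotic and meiotic kinesin, at 866 and 849 normalized read counts in the control and 809 and 755 in the knockdown (-0.13 on the log2 scale, SE 0.06, limma adjusted p = 0.59). CycB3, a mitotic cyclin, had -0.12 (SE 0.06) and fzy, the Cdc20 activator of the anaphase-promoting complex, -0.07 (SE 0.05), with limma adjusted p of 0.62 and 0.70.

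Nucleolar and growth genes known as Myc targets had a median log2 fold change of 0.02 over 12 tested members of a list of 13, with 9 positive and 3 negative. Limma, edgeR and DESeq2 each called 0 and counted 0 at an unadjusted p under 0.05, where limma counted 8.13% of all tested rows, with no adjusted p for 7 in DESeq2. Polr1A, the largest subunit of RNA polymerase I, had 2007 and 2066 normalized read counts in the control and 2107 and 2119 in the knockdown (0.05 on the log2 scale, SE 0.04, limma adjusted p = 0.78). Nop56, a core protein of the particles that guide methylation of ribosomal RNA, had 0.04 (SE 0.04) and Tif-IA, an initiation factor of RNA polymerase I, 0.08 (SE 0.09).

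**Figure D4:**
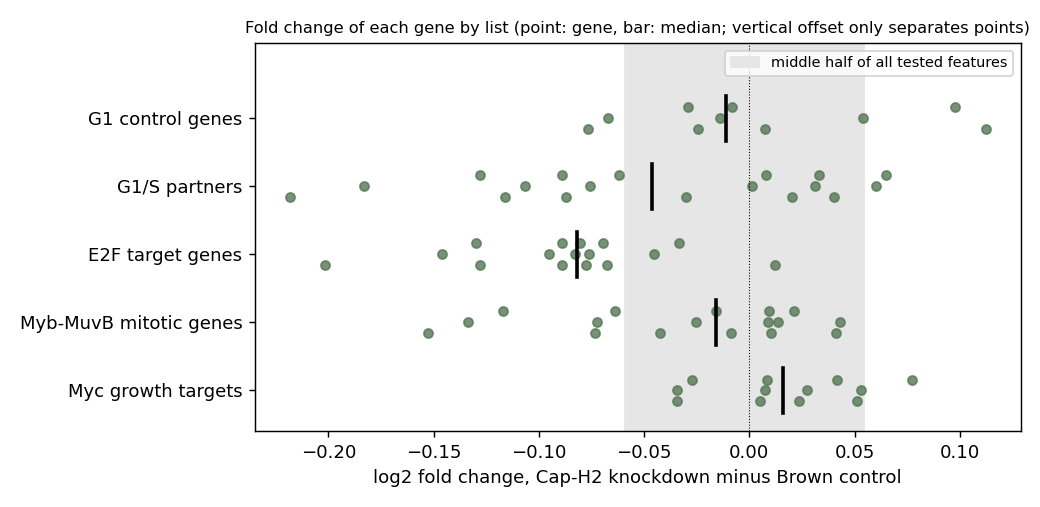
Log2 fold change (knockdown minus control) of each tested gene in the 10 G1 control genes and 4 lists, with a bar at each median and the 25th to 75th percentile of all tested features, -0.06 to 0.05, in grey. The G1 control genes lie on both sides of 0, and the E2F targets lie below it except for RnrL at 0.01.

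**Figure D5:**
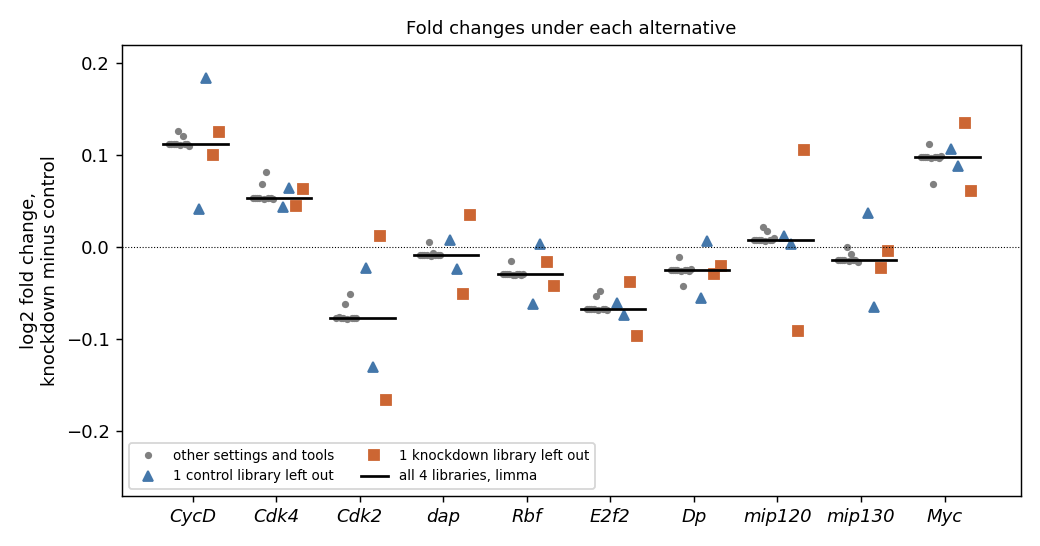
Log2 fold change (knockdown minus control) of each gene with all 4 libraries (black line), with 1 control (triangle) or knockdown (square) library left out, and under the other settings and tools (grey points). Leaving out a library moved mip120 most, from -0.09 to 0.11, while CycD, Cdk4 and Myc stayed above 0 and E2f2 below it.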

How the data were processed

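RNA-seq libraries of BG3 cells, 2 per group, were compared. Tools given in the submitters' processing notes are fastp, HISAT2 and HTSeq, with dm6 as the build, without roles or versions. The authors deposited normalized read counts, a signal per gene equal to reads over a library's size factor; the annotation, the strand setting and the size factor tool are not given in the sources used here. Each value divided by the smallest in its column was whole for 100.0% of values (tolerance 0.001 reads). The 3 special HTSeq rows, 11.5% to 13.9% of reads, were left out. The authors also deposited log2 fold changes, p-values and scores (minus log2 of those p-values) of their own comparison, which were used only as quoted.

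Here log2 of the normalized count plus 1 was tested with limma 3.58.1 (R 4.3.3; mean trend, two-sided) for 7690 rows with a mean of at least 10, with Benjamini-Hochberg adjustment over all of them. The fit had 2 residual degrees of freedom, to which the prior added 14.4. The scale understates changes of low genes. Alternatives included edgeR 4.0.16 and DESeq2 1.42.0 on recovered reads. Coordinates and exon lengths come from Ensembl BDGP6.54 (dm6), which matched 8689 of 8806 rows. In the lists, nop5 was matched by synonym.

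The 10 genes and the lists were chosen with earlier results of these data known. The genes named by rule were the 10, Cap-H2, in each list any called gene and the 3 with the smallest p, and the 3 nearest to the member with the smallest p. Named outside that rule were cell type markers, genes that share exons with the 10, and RnrL. So were E2f1, Rbf2, CycE, mip40 and lin-52, picked after their values were seen. An entry of the E2F list, Tk, was put there by mistake, is no E2F target and was not analysed here, and neither were Myb and Nop60B. Counts carry counting error only within each library.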

Additional observations from a re-analysis of the deposited data

How the results depend on the processing

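Under the 15 alternatives the number of G1 control genes called stayed at 0. DESeq2 gave 7 of them no adjusted p and is left out for these. Of 143 recomputed fold changes 134 kept their sign and 9 turned, all in genes that were never called. With median centring dap stood at 0.0061 and mip130 at 0.00041. The other 7 came from leaving out a library, which gave ranges of -0.17 to 0.013 for Cdk2, -0.051 to 0.035 for dap, -0.062 to 0.0035 for Rbf, -0.055 to 0.0064 for Dp, -0.091 to 0.11 for mip120 and -0.065 to 0.038 for mip130. The lowest limma adjusted p of any of the 10 under any alternative was 0.057, for Myc with the replicate block. Over all rows, 30 in the main test, the count was 14 with quantile normalization, 59 with robust empirical Bayes, and between 41 and 127 when a library was left out, fits that take the spread of a single remaining library from the other group. With the replicate number as a block 146 rows passed, Mcm2 and RnrS among them (limma adjusted p = 0.043 and 0.026), but same-numbered libraries did not deviate together (correlation -0.03 across genes), so the numbers were not taken as pairs. DESeq2 gave no adjusted p for 6112 rows. At these depths the 95% interval of Dp still allows a change in percent of -6.57 to 3.46, and that of Cdk2 one of -15.4 to 6.29.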
